A study of Mus musculus with 11 samples.

Results

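Lipocalin 2 and 9 genes of iron handling were followed across the livers of mice given a mimic of the microRNA miR-30c. The 10 genes, Lcn2, Hamp, Slc40a1, Tfrc, Tfr2, Trf, Fth1, Ftl1, Hmox1 and Cp, were chosen by symbol for their known roles, with earlier results of these data known. Each had 1 of the 13636 rows of the deposited expression table. Male C57BL/6J mice, a common inbred strain, started a Western diet when 8 weeks old, ate it for 1 month and were then injected for 6 weeks. The mimic group (4 libraries) received the miR-30c mimic and the scramble group (3 libraries) a scramble oligomer, at doses raised in steps over the weeks (2.5 mg/kg at first, 5.0 mg/kg next and 7.5 mg/kg at the end). The PBS group (4 libraries) received PBS, the vehicle. All groups shared the strain, the sex, the diet and the period of injections, and no group on a regular diet was used here. Libraries are numbered within a group, and whether each stands for its own mouse is not stated, so the p-values here cover library-to-library spread that may be technical.

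The liver makes the hormone hepcidin, which binds the iron exporter ferroportin on macrophages, gut and liver cells and has it degraded, so that iron stays inside cells. Iron travels in blood on transferrin, enters cells through transferrin receptors and is stored in ferritin, while ceruloplasmin oxidizes iron as it leaves cells and heme oxygenase releases it from heme. Hepcidin transcription is known to follow bone morphogenetic proteins (BMPs) that report iron stores and interleukin 6 that reports inflammation, and lipocalin 2 binds the siderophores with which bacteria take up iron.

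The mimic is labelled as one of miR-30c, whose mature sequence is shown because its seed, bases 2 to 8 and here in capitals, is the part that pairs with target mRNAs. RefSeq (GRCm38.p6) gives the same mature sequence for Mir30c-1 on chromosome 4 and Mir30c-2 on chromosome 1.
miR-30c-5p: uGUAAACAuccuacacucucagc
The 7-base match to this seed, TGTTTAC, was found in the longest annotated 3′ UTR of 1 of the 10 genes, Tfrc, which held 1 match. Over all 11471 genes with a searched 3′ UTR, 1826 (15.9%) held a match. The median longest 3′ UTR of those genes was 1148 bases. It was 112 to 573 bases for Hamp, Fth1, Ftl1, Lcn2, Trf, Tfr2 and Hmox1, 1076 for Cp, 1341 for Slc40a1 and 2461 for Tfrc. Shorter stretches offer fewer places for a match, so the 2 shares are not like for like. Tfrc did not pass the test in any comparison unless values were divided by library totals.

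Values are scaled CPM (reads of a gene relative to library size, scaled between libraries), as deposited. Log2 changes are differences of group means of log2(value + 1), tested with limma and Benjamini-Hochberg adjustment over all 13636 rows, and a gene counts as changed at an adjusted p under 0.05. All values in a library were whole multiples of 1 step, and the total number of steps was 39705157 to 60399018 under the mimic, 74519792 to 88869950 under scramble and 62848115 to 101380174 under PBS. Rows named as major urinary protein (Mup) genes took 11.65% to 41.26% of these totals under the mimic, with the low shares in mimic 1 and 4, against 37.92% to 50.02% under scramble and 38.18% to 52.9% under PBS. Hepatocyte markers matched the labelled tissue, since the 12 listed ones summed to between 29256 and 32290 under the mimic, 33369 and 37658 under scramble and 31905 and 38724 under PBS.

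Of the 10 genes, 6 rose with the mimic, both against scramble and against PBS, and 0 fell. The 6 were Lcn2, Hamp, Trf, Cp, Fth1 and Hmox1. In mimic against scramble 32% of all rows passed the test, 17.3% as higher and 14.7% as lower. In mimic against PBS 37.1% passed, 20% as higher and 17.1% as lower. The median log2 change of the 10 genes was 0.52 against scramble and 0.55 against PBS, beside medians of 0.0033 and 0.0034 over all rows. Because the 10 genes were chosen with earlier results of these data known, their counts and medians are descriptions only. The values of 5 genes, Lcn2, Hamp, Trf, Cp and Fth1, lay above and did not overlap those of the scramble group, nor those of the PBS group, and 0 lay below without overlap. Over all rows 21.6% lay above and 19.2% below without overlap against scramble, and 17.2% and 14.5% against PBS. These 2 comparisons share the mimic libraries. Directions are relative to the bulk of rows. Of all rows, 2363 were higher and 2000 lower against scramble and 2733 and 2326 against PBS. When values were divided by library totals, these counts were 5488 and 111, and 6874 and 120. The median log2 change of all rows moved to 0.50 and 0.51. Under that scaling all 10 genes passed as higher against scramble, with Slc40a1 at 0.79, Tfrc at 0.62, Tfr2 at 0.72 and Ftl1 at 0.73, and all but Slc40a1 passed against PBS. In scramble against PBS 0 of the 10 genes and 0 of all rows (0%) passed with limma, and 434 rows had an unadjusted p under 0.05. The values of all 10 genes overlapped there, beside 2.33% of all rows that lay above and 2.39% that lay below without overlap.

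**Figure D1:**
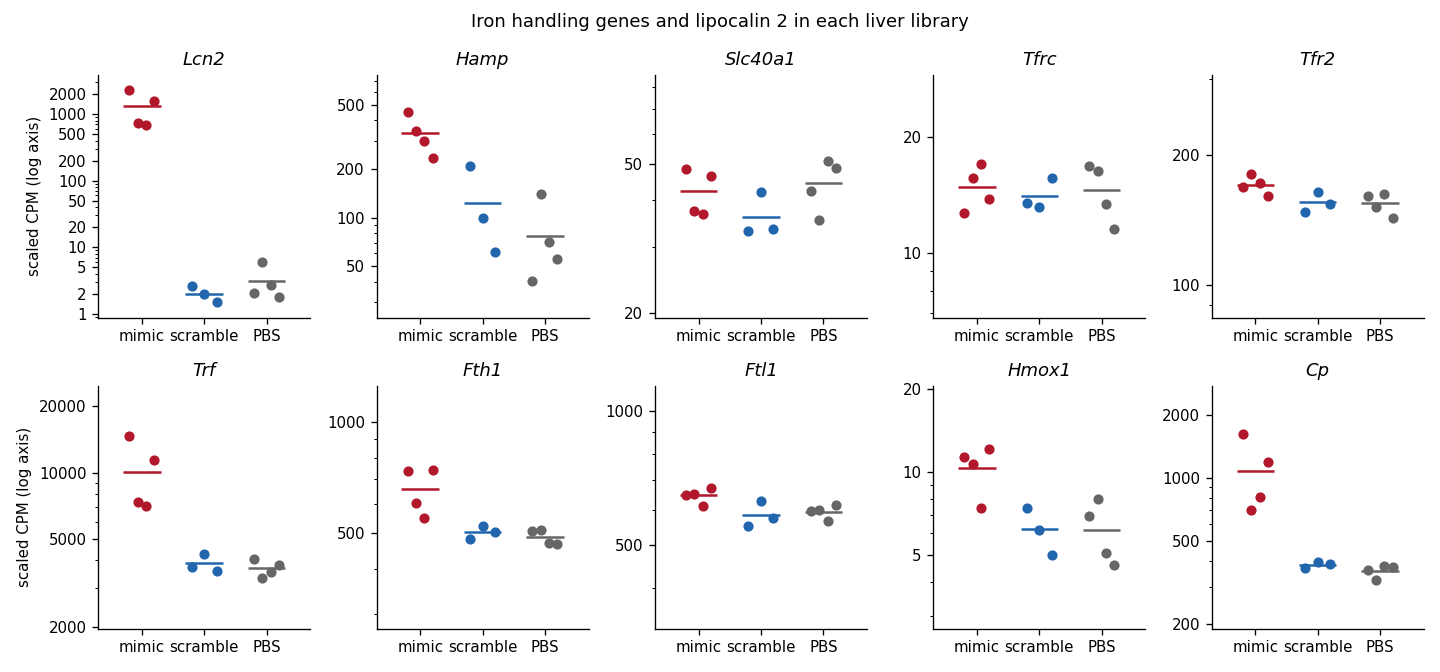
Scaled CPM of the 10 genes in each library on log axes that differ between panels, with 1 point per library, a line at the group mean, and the groups mimic, scramble and PBS from left to right. Lcn2 lies between 690 and 2287 in the 4 mimic libraries and at or below 6.05 in the other libraries. Slc40a1, Tfrc, Tfr2, Ftl1 and Hmox1 overlap between the groups, Hmox1 through mimic 3.

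Hamp, the hepcidin gene (GRCm38 chr7:30942368-30944032, minus strand), was higher in every mimic library than in any other library. It had 450, 343, 298 and 235 scaled CPM in mimic 1 to 4, against 210, 98.7 and 61.5 in scramble 1 to 3 and 40.8, 139, 70.7 and 55.3 in PBS 1 to 4. Within the mimic group it was highest in mimic 1 and lowest in mimic 4, and the nearest library of another group was scramble 1. The means were 332 ± 90.7 under the mimic, 123 ± 77.3 under scramble and 76.5 ± 43.6 under PBS (SD, n = 4, 3 and 4). The log2 change was 1.56 ± 0.43 (SE, adjusted p = 0.0186, limma) against scramble and 2.21 ± 0.40 (SE, adjusted p = 0.00182) against PBS. Against scramble the call did not hold without scramble 2 (adjusted p = 0.0556) or without scramble 3 (log2 change 1.16, adjusted p = 0.0826). Scramble against PBS differed by 0.65 with a 95% interval of -0.30 to 1.60.

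Mice carry a near copy, Hamp2, on the same chromosome, whose mRNA is so alike that the authors' counting could have split reads between the copies, which makes both values uncertain. Hamp2 had 10.4, 7.49, 6.26 and 8.06 scaled CPM in mimic 1 to 4, against 7.50, 8.29 and 3.95 in scramble 1 to 3 and 3.97, 5.27, 3.32 and 5.36 in PBS 1 to 4. The mimic values overlapped those of the scramble group and lay above all PBS values. The log2 change was 0.29 ± 0.22 (SE, adjusted p = 0.335, limma) against scramble and 0.72 ± 0.21 (SE, adjusted p = 0.0181) against PBS, and the call against PBS was lost without mimic 1 (adjusted p = 0.0521) or PBS 3 (adjusted p = 0.0562).

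The 150 bases before the start sites of both genes are shown because they were searched for the letters of the BMP response element (GGCGCC) and of a STAT site (TTCNNNGAA), through which BMPs and interleukin 6 are known to act on hepcidin. Matches are in capitals, the sequences come from RefSeq (GRCm38.p6), and both genes lie on the minus strand, Hamp at chr7:30944030-30944179 and Hamp2 at chr7:30924182-30924331.
Hamp: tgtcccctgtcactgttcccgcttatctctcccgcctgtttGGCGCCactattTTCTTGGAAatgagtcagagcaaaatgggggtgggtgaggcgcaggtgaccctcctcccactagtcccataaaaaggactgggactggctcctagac
Hamp2: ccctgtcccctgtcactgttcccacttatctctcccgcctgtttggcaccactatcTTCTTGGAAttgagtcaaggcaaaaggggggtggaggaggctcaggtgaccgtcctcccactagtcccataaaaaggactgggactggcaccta
The stretches were 88.2% identical, with 135 identical, 12 mismatched and 6 gapped positions. Hamp held the BMP response element from -109 to -104 and the STAT letters from -97 to -89 relative to the start site. Hamp2 held the STAT letters from -94 to -86, and GGCGCC was not found in its window. Among 32851 promoter windows of 300 bases (250 before and 50 after a start site), 11.9% held GGCGCC and 8.3% held TTCNNNGAA on either strand, and these letter matches are descriptions, not measured binding.

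Slc40a1 encodes ferroportin, the exporter that hepcidin removes from the cell surface (chr1:45908068-45926523, minus strand). Its values were 48.3, 37.2, 36.8 and 46.3 scaled CPM in mimic 1 to 4, against 32.9, 41.9 and 33.4 in scramble 1 to 3 and 42.2, 35.3, 50.7 and 48.7 in PBS 1 to 4. The 3 groups overlapped. The log2 change was 0.22 (95% interval -0.10 to 0.53, adjusted p = 0.267, limma) against scramble and -0.07 (-0.36 to 0.23, adjusted p = 0.726) against PBS. The value against PBS turned positive, at 0.53, when values were divided by library totals. That scaling moved the median of all rows to 0.51 against PBS. Kupffer cells, the resident macrophages that also express ferroportin, had 10 measured markers of 11 listed. Of these, 6 fell against scramble (Clec4f, Timd4, Vsig4, Cd163, Folr2 and C6), beside 14.7% of all rows called lower. The other 4, Cd5l, Marco, Adgre1 and Csf1r, were not called. Cd5l, Adgre1 and Csf1r had higher means under the mimic than under scramble, and Marco a lower one. The summed markers were 139.8 to 219 under the mimic, 205 to 398 under scramble and 292 to 383 under PBS. C6 was the largest part of these sums, averaging 94.3 under the mimic, 175 under scramble and 199 under PBS. The part of Kupffer cells in the Slc40a1 values was not tested. In whole liver fewer cells of a type and less RNA per cell cannot be told apart.

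Tfrc encodes transferrin receptor 1, which takes up iron-loaded transferrin (chr16:32608920-32632794, plus strand). It was among the lowest of the 10 genes, at 12.7, 15.7, 17.1 and 13.8 scaled CPM in mimic 1 to 4, against 13.5, 13.2 and 15.7 in scramble 1 to 3 and 16.9, 16.4, 13.4 and 11.6 in PBS 1 to 4. The groups overlapped fully. For Tfrc the log2 change came to 0.06 (95% interval -0.23 to 0.36, adjusted p = 0.747, limma) against scramble and 0.03 (-0.24 to 0.30, adjusted p = 0.863) against PBS.

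Tfr2 encodes transferrin receptor 2, a sensor of loaded transferrin on hepatocytes that feeds into hepcidin control (chr5:137569840-137587481, plus strand). Its values were 168, 180.1, 172 and 160.2 scaled CPM in mimic 1 to 4, against 148, 164 and 154 in scramble 1 to 3 and 161, 151, 162 and 143 in PBS 1 to 4. The groups overlapped, and the spread within each was small, with a coefficient of variation of 4.88% under the mimic, 5.27% under scramble and 5.93% under PBS. Tfr2 differed by a log2 change of 0.13 (95% interval -0.04 to 0.31, adjusted p = 0.219, limma) against scramble and 0.14 (-0.02 to 0.30, adjusted p = 0.152) against PBS. With quantile normalization Tfr2 passed in both, at 0.28 against scramble (adjusted p = 0.0271, limma) and 0.28 against PBS (adjusted p = 0.0157).

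Trf, the gene of transferrin, the iron carrier of blood plasma (chr9:103204001-103230444, minus strand), rose and had the highest level of the set. It had 14597, 7391, 7083 and 11377 scaled CPM in mimic 1 to 4, against 3747, 4288 and 3579 in scramble 1 to 3 and 4064, 3336, 3552 and 3802 in PBS 1 to 4. The mimic libraries did not overlap the others, and mimic 1 and 4 stood above mimic 2 and 3. The means were 10112 ± 3572 under the mimic, 3871 ± 370 under scramble and 3688 ± 314 under PBS (SD, n = 4, 3 and 4). The ratio of means was 2.61 against scramble and 2.74 against PBS, with log2 changes of 1.32 ± 0.25 (SE, adjusted p = 0.00248, limma) and 1.39 ± 0.23 (SE, adjusted p = 0.001).

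Cp, the gene of ceruloplasmin, the copper enzyme of plasma that oxidizes iron for loading onto transferrin (chr3:19957054-20009145, plus strand), followed the same order of libraries at the top. Its values were 1625, 699, 811 and 1196 scaled CPM in mimic 1 to 4, against 368, 394 and 389 in scramble 1 to 3 and 363, 323, 380.1 and 374 in PBS 1 to 4. Mimic 1 was highest and mimic 4 next, and the lowest mimic library lay above every scramble and PBS library. The means were 1083 ± 419 under the mimic, 384 ± 13.4 under scramble and 360 ± 25.7 under PBS (SD, n = 4, 3 and 4), with log2 changes of 1.42 ± 0.23 (SE, adjusted p = 0.00115, limma) against scramble and 1.51 ± 0.21 (SE, adjusted p = 4e-04) against PBS. The coefficient of variation of Cp was 38.7% under the mimic, 3.50% under scramble and 7.13% under PBS, and that of Trf was 35.3%, 9.56% and 8.52% in the same groups.

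**Figure D2:**
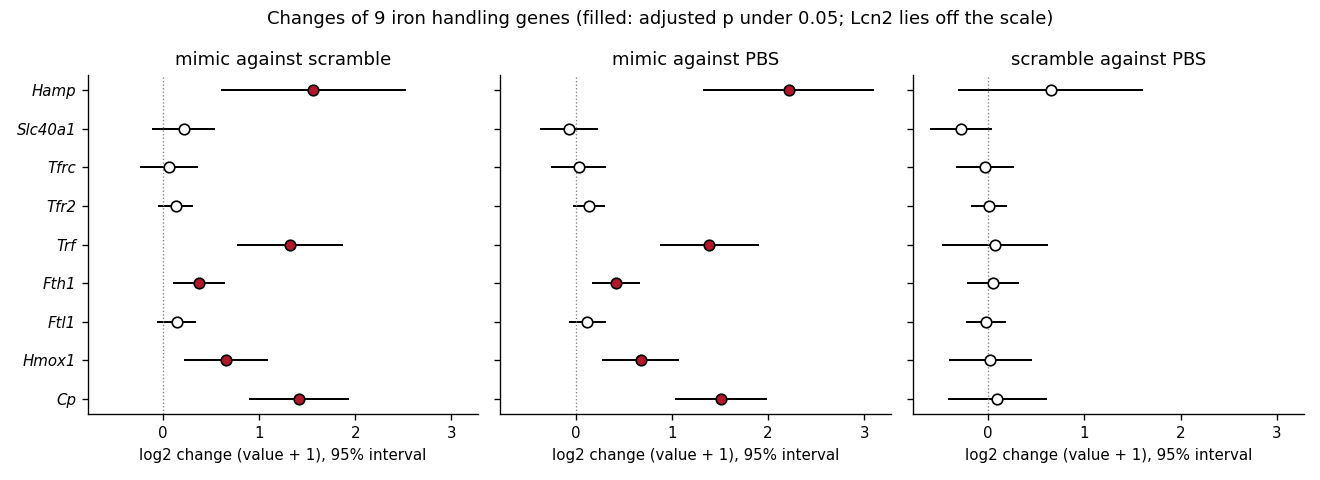
Log2 changes of 9 of the genes (differences of mean log2(value + 1)) with 95% intervals from limma in mimic against scramble, mimic against PBS and scramble against PBS, where filled points passed an adjusted p of 0.05. Hamp, Trf, Fth1, Hmox1 and Cp are filled in both mimic comparisons and no gene is filled in scramble against PBS; Lcn2, at 8.60, 8.23 and -0.37, is left out because it lies beyond the axis.

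Ferritin, the cell's iron store, is built from a heavy chain that oxidizes iron (Fth1, chr19:9980598-9985098, plus strand) and a light chain that helps form the mineral core (Ftl1, chr7:45457944-45459884, minus strand). Fth1 rose and Ftl1 did not pass the test. Fth1 had 739, 602, 547 and 740.0 scaled CPM in mimic 1 to 4, against 481, 523 and 504 in scramble 1 to 3 and 505, 509, 469 and 467 in PBS 1 to 4. The mimic libraries did not overlap the others, though mimic 3 and scramble 2 lay close, and the scramble and PBS groups overlapped. In Fth1 the log2 change came to 0.37 ± 0.12 (SE, adjusted p = 0.0324, limma) against scramble and 0.42 ± 0.11 (SE, adjusted p = 0.0126) against PBS. Against scramble the call was lost without mimic 1, mimic 4 or any 1 of the scramble libraries, with adjusted p between 0.0585 and 0.109, and also with quantile normalization (adjusted p = 0.139) and in the fit of only these 2 groups (adjusted p = 0.0717).

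Ftl1 had 649, 652, 613 and 671 scaled CPM in mimic 1 to 4, against 552, 629 and 576 in scramble 1 to 3 and 597, 598, 566 and 615 in PBS 1 to 4. Mimic 3 overlapped the other groups. The log2 change was 0.14 (95% interval -0.05 to 0.34, adjusted p = 0.234, limma) against scramble and 0.12 (-0.06 to 0.30, adjusted p = 0.264) against PBS, and the difference between the chains was not itself tested. Both chains have processed copies elsewhere in the genome, with which the authors' counting could have shared reads.

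The mRNAs of ferritin, ferroportin and transferrin receptor 1 carry iron-responsive elements, short hairpins to which iron regulatory proteins bind when iron is scarce. In a 5′ UTR such binding blocks translation, so the mRNA levels measured here do not report it, and in the 3′ UTR of Tfrc it protects the mRNA from decay. The elements are shown to let these 2 arrangements be compared, as 29 bases of GENCODE M21 transcripts on GRCm38 with the 6-base loop in capitals.
Fth1 5′ UTR: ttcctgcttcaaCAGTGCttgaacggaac
Ftl1 5′ UTR: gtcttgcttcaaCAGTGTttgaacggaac
Slc40a1 5′ UTR: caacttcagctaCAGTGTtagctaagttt
Tfrc 3′ UTR, first: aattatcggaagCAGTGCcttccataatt
Tfrc 3′ UTR, next: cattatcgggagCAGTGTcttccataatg
Tfrc 3′ UTR, next: ctatatcggagaCAGTGAtctccatatgt
Tfrc 3′ UTR, last: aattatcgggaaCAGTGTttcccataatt
The search asked for a bulged C, 5 bases, the loop CAGTGN and 5 bases that pair with the first 5, which is 17 bases in all. It misses hairpins that depart from this pattern, so Tfrc may hold more elements than those shown. The 17-base cores lie at chr19:9982738-9982754 in Fth1, chr7:45459785-45459801 in Ftl1, chr1:45925471-45925487 in Slc40a1, and chr16:32631225-32631241, chr16:32631604-32631620, chr16:32631669-32631685 and chr16:32631716-32631732 in Tfrc. Of the genes searched, 21 of 11296 (0.186%) held the pattern in a 5′ UTR and 89 of 11436 (0.778%) in a 3′ UTR, Alas2 of heme synthesis among the genes with a 5′ UTR match. Of the 4 genes with these elements, Fth1 passed the test and Slc40a1, Ftl1 and Tfrc did not.

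Hmox1 encodes heme oxygenase 1, the inducible enzyme that opens heme to biliverdin, carbon monoxide and iron (chr8:75093621-75100589, plus strand). It had 11.3, 10.8, 7.39 and 12.2 scaled CPM in mimic 1 to 4, against 7.42, 6.19 and 4.99 in scramble 1 to 3 and 6.92, 8.00, 5.10 and 4.60 in PBS 1 to 4. Mimic 3 overlapped the other groups, and the other 3 mimic libraries lay above them. The means were 10.4 ± 2.09 under the mimic, 6.20 ± 1.21 under scramble and 6.16 ± 1.58 under PBS (SD, n = 4, 3 and 4). Hmox1 thus differed by a log2 change of 0.66 ± 0.19 (SE, adjusted p = 0.0233, limma) against scramble and 0.68 ± 0.18 (SE, adjusted p = 0.0127) against PBS. Against scramble the call was lost without mimic 1 (adjusted p = 0.0557), mimic 4 (0.0618), scramble 2 (0.0561) or scramble 3 (0.0957). Macrophages also express Hmox1. All 12 markers of monocyte-derived macrophages rose against scramble and against PBS, beside 17.3% and 20% of all rows. Gpnmb, Chil3, Trem2, Ly6c2, Itgax and Ccr2 averaged at most 0.947 scaled CPM under scramble and under PBS. The deposited rows appear to be filtered by level, so these genes may be listed only through the mimic libraries. Their rise could then have been fixed in advance. The 12 markers summed to 197 to 271 under the mimic, 42.2 to 50.1 under scramble and 31.0 to 76.6 under PBS. The part of macrophages in the Hmox1 change was not tested.

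Lcn2, the gene of lipocalin 2 (chr2:32384633-32388252, minus strand), changed most among the 10 genes. It had 2287, 727, 690 and 1552 scaled CPM in mimic 1 to 4, against 2.58, 1.97 and 1.48 in scramble 1 to 3 and 2.04, 6.05, 2.73 and 1.76 in PBS 1 to 4. The lowest mimic library stood far above the highest of the others, PBS 2. Within the mimic group the libraries kept the order seen for Trf, with mimic 1 highest, mimic 4 next and mimic 3 lowest. The ratio of means was 654 against scramble and 418 against PBS, with log2 changes of 8.60 ± 0.42 (SE, adjusted p = 5.57e-07, limma) and 8.23 ± 0.39 (SE, adjusted p = 3.84e-07). Scramble against PBS differed by -0.37.

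Neutrophils store lipocalin 2 in their granules, so their markers are given beside it. Of 13 listed markers 6 were measured (S100a8, S100a9, Csf3r, Ltf, Ngp and Mmp9), and all 6 rose against scramble and against PBS. S100a8, S100a9, Ltf, Ngp and Mmp9 averaged at most 0.473 scaled CPM under scramble and under PBS. The deposited rows appear to be filtered by level, so these genes may be listed only through the mimic libraries. Their rise could then have been fixed in advance, and the count is not read as a result. The 6 markers summed to 17.1, 23.1, 36.9 and 23.8 scaled CPM in mimic 1 to 4, against 1.32, 1.87 and 1.29 in scramble 1 to 3 and 2.28, 2.79, 2.05 and 1.86 in PBS 1 to 4. Mimic 1, with the highest Lcn2, had the lowest neutrophil sum of the mimic group, and mimic 3, with the lowest Lcn2, had the highest. The granule gene Ltf averaged 1.77 ± 0.979 scaled CPM under the mimic, 0.0044 ± 0.0076 under scramble and 0.0366 ± 0.0208 under PBS (SD, n = 4, 3 and 4). The part of neutrophils in the Lcn2 change was not tested.

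**Figure D3:**
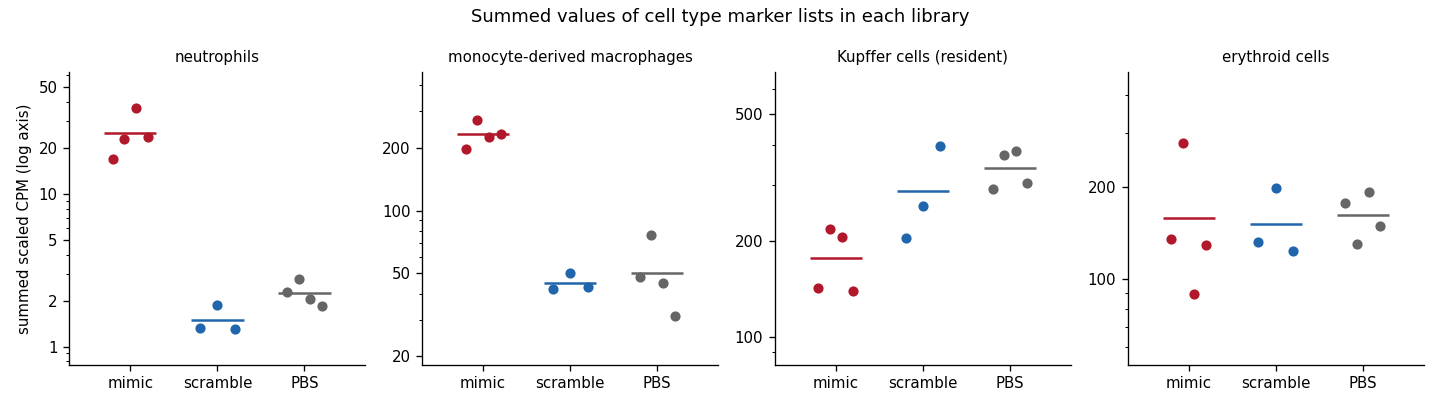
Summed scaled CPM of the markers of neutrophils (6 genes), monocyte-derived macrophages (12), resident Kupffer cells (10) and erythroid cells (6) on log axes, with 1 point per library, a line at the group mean, and mimic, scramble and PBS from left to right. Neutrophil sums lie between 17.1 and 36.9 in the mimic group and below 3 elsewhere, and erythroid sums overlap between the groups.

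The 250 bases before the Lcn2 start site (RefSeq, GRCm38.p6, chr2:32387740-32387989, minus strand) are shown because Lcn2 had the widest change. The capitals mark a match to TTGCNNAA, the letters of a C/EBP site, a family of factors known from acute phase genes.
Lcn2: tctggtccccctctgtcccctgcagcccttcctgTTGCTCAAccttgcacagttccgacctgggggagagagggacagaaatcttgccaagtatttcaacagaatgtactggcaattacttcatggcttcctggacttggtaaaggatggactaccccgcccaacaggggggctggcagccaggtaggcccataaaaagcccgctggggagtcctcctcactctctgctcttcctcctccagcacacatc
The match lies from -216 to -209, and 10.8% of the 32851 promoter windows held one on either strand. Promoter windows were matched for Cp, Fth1, Ftl1, Hamp, Lcn2, Tfr2 and Tfrc. Cp, Fth1, Tfr2 and Tfrc had several start sites, each with its own window. C/EBP letters were also found for Cp and Fth1, and the letters of an NF-kB site, present in 4.51% of all windows, for Ftl1 and Tfr2. GGCGCC was found in a Tfrc window as well, from -89 to -84. In Cp, Fth1, Tfr2 and Tfrc the matches lay in a single window and the others held none. These genes thus had more places for a match than a share per window covers. STAT letters were found in the windows of Hamp and Hamp2 alone among these genes.

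Divided by the length of the longest coding transcript, the levels of the 10 genes kept one order apart from Lcn2 and Hamp. In the mimic group Trf came first at 3933 scaled CPM per kb, followed by Lcn2 at 1436, Hamp at 809, Ftl1 at 668, Fth1 at 440, Cp at 237, Tfr2 at 55.3, Slc40a1 at 12.5, Hmox1 at 6.63 and Tfrc at 3.03. Before this division Fth1 averaged 657 and Ftl1 647 scaled CPM under the mimic. Their order there thus rests on the transcript lengths used, 1494 and 968 bases. In the PBS group Trf came first at 1435 per kb, followed by Ftl1 at 614, Fth1 at 326, Hamp at 187, Cp at 78.9, Tfr2 at 50.2, Slc40a1 at 13.1, Hmox1 at 3.92, Lcn2 at 3.44 and Tfrc at 2.98. Lcn2 thus took place 2 in the mimic group, against place 10 in the scramble group at 2.20 per kb and place 9 in the PBS group. Within the mimic group the SDs were wide enough for Lcn2 (832) and Hamp (221) that their places next to Ftl1 were not distinct, and in the PBS group Hmox1, Lcn2 and Tfrc lay within 1 SD of each other (1.01, 2.16 and 0.514 per kb).

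Across the 11 libraries, Pearson's r of log2(value + 1) among the genes that rose was 0.991 for Trf and Cp, 0.955 for Trf and Fth1, 0.946 for Lcn2 and Cp and 0.851 for Lcn2 and Hamp. These values describe points that share the 3 groups, and the step between mimic and the other groups is part of each. Slc40a1 and Tfrc had an r of -0.61. Over the whole table the rows most like Lcn2 were the acute phase genes Saa3 (r = 0.998) and Saa2 (0.996) and the heme carrier gene Hpx (0.996). Those most like Hamp were Gnptab (0.968), Lppr2 (0.949) and AK010638 (0.946). For Cp, after Trf, they were Ikbke (0.991) and Cyb561 (0.987), and for Trf, after Cp, Suv420h2 (0.990) and Calm3 (0.989). The rows nearest to Hmox1 were Pef1 (0.982), Bak1 (0.965) and Zcchc17 (0.965), and those nearest to Fth1 were Creb3l1 (0.981), M6pr (0.979) and AK205936 (0.975). For the 4 genes that did not pass the test the highest r values were lower. The step between mimic and the other groups, shared by many called rows, raises r for called genes, so this contrast is not separate from the calls. Tfr2 was most like Mbd4 (0.926), Pddc1 (0.916) and F2 (0.915), and Slc40a1 most like Zfp101 (0.918), Tada1 (0.912) and Nr2f6 (0.891). Ftl1 was most like Ikbip (0.940), AK079754 (0.928) and Ecscr (0.925), and Tfrc most like the macrophage gene Cd5l (0.886), Klf10 (0.883) and Zfp750 (0.881).

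Beyond the 10 genes, 7 lists of iron and heme handling were read from the same fit. Under library totals 1 gene of these lists, Cd163, was still called lower in each comparison, so the lower calls below are relative to the bulk of rows. The counts of each list stand beside 17.3% of all rows called higher and 14.7% called lower against scramble, and 20% and 17.1% against PBS, and counts near these shares are not a result about a list. On the list of hepcidin control, 23 of 25 genes were measured. Of these, 4 rose and 7 fell against scramble, and 4 rose and 8 fell against PBS, with a median log2 change of -0.12 in each. The share of higher genes was near that of all rows. The share of lower genes was above the 14.7% and 17.1% of all rows, but its count fell when single libraries were left out, as given below. Hfe2, which encodes the BMP co-receptor hemojuvelin, averaged 48.5 ± 8.65 scaled CPM under the mimic, 32.0 ± 2.17 under scramble and 33.5 ± 2.27 under PBS (SD, n = 4, 3 and 4), a log2 change of 0.57 ± 0.12 (SE, adjusted p = 0.00498, limma) against scramble. Id1, a target of BMP signalling, changed by 0.45 against scramble and 0.37 against PBS, and Hfe, the hemochromatosis gene, by 0.31 and 0.28. Id1 was low, averaging 1.24 scaled CPM under the mimic, 0.646 under scramble and 0.737 under PBS. With rows filtered by level, Id1 may be listed only through the mimic libraries, so its rise is no measure of BMP signalling. Fgl1, a fibrinogen-like protein secreted by hepatocytes, showed the largest change on the list at 2.64 ± 0.22 (SE, adjusted p = 2.57e-05) against scramble and 2.33 against PBS. The 2 other named genes fell, Smad4, which carries BMP signals to the nucleus, by 0.45 against scramble and by 0.41 against PBS, and Il6st, the signalling chain of the interleukin 6 receptor, by 0.43 and by 0.30, although both changed sign when divided by library totals.

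Further genes of the interleukin 6 and BMP routes were picked after their values were seen. Stat3 averaged 45.5 ± 9.50 scaled CPM under the mimic, 36.2 ± 1.84 under scramble and 37.4 ± 0.674 under PBS (SD, n = 4, 3 and 4) and was not called against scramble (log2 change 0.30, adjusted p = 0.0976, limma). Socs3, an early target of STAT3, had a log2 change of -0.11 (adjusted p = 0.722) and the receptor gene Il6ra one of -0.50 (adjusted p = 0.277). Tmprss6, the protease that cleaves hemojuvelin, averaged 130.5 under the mimic, 163 under scramble and 157 under PBS and was lower by a log2 change of -0.32 (adjusted p = 0.0213) against scramble. Unlike Id1, the BMP route genes Smad6, Smad7, Atoh8 and Bmp2 were not among the 4 genes of the list called higher against scramble. Under the mimic, scramble and PBS in turn, Smad6 averaged 2.44, 2.32 and 2.19 and Smad7 4.257, 4.174 and 4.502. In the same order Atoh8 averaged 11.9, 19.5 and 13.2 and Bmp2 3.266, 4.195 and 4.388. The number of lower genes of the hepcidin list was 4 against scramble without any 1 of the scramble libraries, and against PBS it was 4 without mimic 1, mimic 4 or PBS 3, 5 without PBS 1 and 3 without PBS 4.

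**Figure D4:**
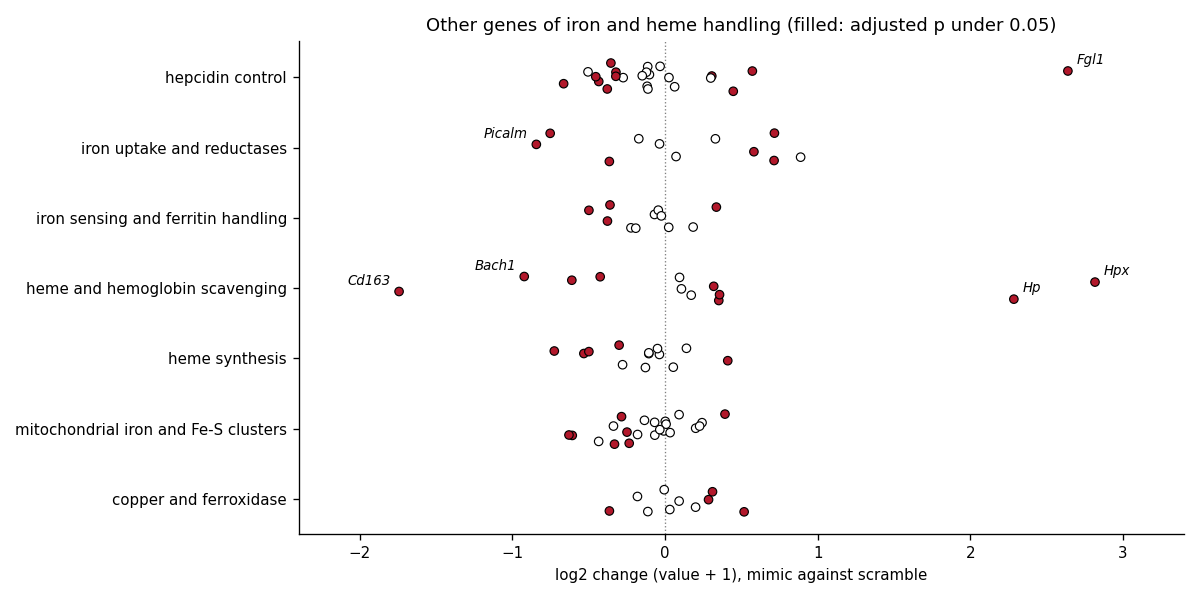
Log2 changes in mimic against scramble (differences of mean log2(value + 1)) of the measured genes of 7 lists of iron and heme handling, with 1 point per gene, filled where adjusted p was under 0.05, and names of filled genes at changes beyond 0.8 in either direction. Hpx at 2.82, Fgl1 at 2.64 and Hp at 2.29 lie far to the right and Cd163 at -1.74 to the left, while most other genes lie within 1 of 0.

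Scavenging of heme and hemoglobin was led by the plasma carriers. Of 12 measured genes of 14 listed, 5 rose and 4 fell against scramble, and 7 rose and 4 fell against PBS. Hpx, which encodes the heme carrier hemopexin, averaged 6835 ± 1918 scaled CPM under the mimic, 941 ± 55.4 under scramble and 1101 ± 182 under PBS (SD, n = 4, 3 and 4), with log2 changes of 2.82 against scramble and 2.60 against PBS. Hp, which encodes the hemoglobin carrier haptoglobin, averaged 4717 under the mimic, 917 under scramble and 889 under PBS, with changes of 2.29 and 2.34. Blvra, the reductase that acts after heme oxygenase, changed by 0.35 and 0.50. Cd163, the receptor through which macrophages take up hemoglobin bound to haptoglobin and also a Kupffer cell marker, averaged 0.445 ± 0.202 under the mimic, 4.30 ± 2.94 under scramble and 4.59 ± 1.18 under PBS (SD, n = 4, 3 and 4). Bach1, the repressor of Hmox1 transcription, averaged 21.9 ± 2.17 under the mimic, 42.3 ± 1.72 under scramble and 43.1 ± 8.37 under PBS (SD, n = 4, 3 and 4), changes of -0.92 and -0.93, and Abcg2, an exporter of heme and porphyrins, changed by -0.61 and -0.67. With limma, the adjusted p against scramble did not exceed 0.0055 for any of these 6.

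For iron uptake and its reductases, 3 of 11 measured genes (14 listed) rose and 3 fell against scramble, and 2 rose and 3 fell against PBS, beside 17.3% higher and 14.7% lower of all rows against scramble and 20% and 17.1% against PBS. Steap3, the reductase of transferrin-bound iron in endosomes, averaged 14.8 ± 4.07 scaled CPM under the mimic, 8.39 ± 0.205 under scramble and 8.47 ± 1.34 under PBS (SD, n = 4, 3 and 4), a log2 change of 0.71 in each comparison. Its relative Steap2 changed by 0.58 against scramble, and by 0.38 (adjusted p = 0.0521, limma) against PBS. The ferritin receptor gene Scara5 changed by 0.72 against scramble and 1.0 against PBS, and the call against scramble (adjusted p = 0.0469) was lost without any 1 of 9 libraries, all but PBS 1 and PBS 2. Picalm, which takes part in clathrin-dependent uptake of the transferrin receptor, changed by -0.84 and -0.78, and Bdh2, an enzyme linked to a mammalian siderophore, by -0.75 and -0.55. Slc39a8, a metal importer, changed by -0.36 and -0.37 and turned positive under library totals. Without scramble 1, 1 gene of this list rose against scramble.

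Of 11 measured genes of 13 listed for iron sensing and ferritin handling, 1 rose and 3 fell against scramble, and 0 rose and 3 fell against PBS. Ireb2, which encodes iron regulatory protein 2, averaged 37.3 ± 3.80 scaled CPM under the mimic, 53.0 ± 5.13 under scramble and 55.4 ± 6.73 under PBS (SD, n = 4, 3 and 4), log2 changes of -0.50 and -0.56. Aco1, which encodes iron regulatory protein 1, changed by -0.38 against scramble and by -0.17 (adjusted p = 0.101, limma) against PBS, and the iron chaperone gene Pcbp2 by -0.36 and -0.37. Under library totals all 3 were positive. Pcbp4 rose by 0.34 against scramble, a call that did not hold without mimic 1, mimic 4 or any 1 scramble library.

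Heme synthesis had 1 higher and 4 lower genes of 13 measured in both comparisons, beside 14.7% of all rows lower against scramble and 17.1% against PBS. Cpox, the oxidase of coproporphyrinogen, averaged 44.0 ± 5.58 scaled CPM under the mimic, 73.1 ± 3.39 under scramble and 68.6 ± 5.27 under PBS (SD, n = 4, 3 and 4), log2 changes of -0.73 and -0.63. Fech, the ferrochelatase that inserts iron into heme, changed by -0.50 and -0.45, Abcb10 by -0.53 and -0.45 and Abcb6, a porphyrin transporter, by -0.30 and -0.33, and these 3 were above 0 under library totals. Uros, the uroporphyrinogen synthase, rose by 0.41 and 0.39. Without any 1 scramble library 2 genes of the list fell against scramble, and without scramble 3 Uros did not pass. Erythroid markers, which include Alas2 of this pathway, summed to 89.4 to 279 under the mimic, 124 to 199 under scramble and 130.3 to 193 under PBS, with 6 of 13 measured, and 1 of these, Bpgm, rose against scramble (log2 change 0.26, adjusted p = 0.0385), a call lost without mimic 1, mimic 4, PBS 1, scramble 1 or scramble 2.

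For mitochondrial iron and iron-sulfur clusters, 1 of 22 measured genes rose and 6 fell against scramble, and 3 rose and 4 fell against PBS, where the shares of all rows were 20% and 17.1%. Hspa9, a mitochondrial chaperone of cluster transfer, averaged 159 ± 19.2 scaled CPM under the mimic, 246 ± 18.9 under scramble and 239 ± 18.0 under PBS (SD, n = 4, 3 and 4), log2 changes of -0.63 and -0.59. Fdx1, a ferredoxin, changed by -0.61 against scramble and by -0.21 (adjusted p = 0.194, limma) against PBS. Isca1 changed by -0.28 and -0.29 and Nfs1, the cysteine desulfurase, by -0.23 and -0.17 (adjusted p = 0.0525), and under library totals both were positive in both comparisons and Hspa9 and Fdx1 against PBS. Hscb, a co-chaperone, changed by 0.39 and 0.45, from low averages of 0.966 under scramble and 0.900 under PBS. It may also be listed only through the mimic libraries. Without scramble 1 the list had 2 lower and 0 higher genes against scramble, and without PBS 2 it had 3 higher genes.

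Among copper and ferroxidase genes 3 of 10 measured (11 listed) rose and 1 fell in both comparisons, beside 17.3% and 14.7% of all rows against scramble and 20% and 17.1% against PBS. Atox1, the chaperone that hands copper to the secretory pathway where ceruloplasmin is loaded, averaged 28.1 ± 4.50 scaled CPM under the mimic, 19.2 ± 2.65 under scramble and 20.7 ± 1.19 under PBS (SD, n = 4, 3 and 4), log2 changes of 0.52 and 0.41. Heph, which encodes the ferroxidase hephaestin, a relative of ceruloplasmin, changed by 0.29 and 0.35, and Slc31a2, a copper transporter, by 0.31 and 0.25. Sod1, which binds copper and zinc, changed by -0.36 and -0.27 and was positive under library totals. Without scramble 1, 1 gene of this list rose against scramble, and without mimic 1, PBS 1 or PBS 3 Sod1 did not pass against PBS.

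Mimic 1 and 4, which had the lowest shares of Mup rows, were also the libraries with the highest Lcn2, Trf, Cp, Fth1 and Hmox1. Hamp did not share this order, since mimic 4 had its lowest value in the group. With mimic 1 and 4 both left out, 3 of the 10 genes passed against scramble and 4 against PBS, and Lcn2, Trf and Cp were among them in both. In the same fit Hamp had an adjusted p of 0.0696 against scramble with limma. Over all the alternatives tried, Lcn2, Trf and Cp passed in both mimic comparisons, with a largest adjusted p of 5.76e-05, 0.0137 and 0.00708 against scramble.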

How the data were processed

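Stranded mRNA libraries were sequenced as paired-end reads of 48 bases on an Illumina HiSeq, per the labels' protocols, and RNA integrity numbers of 8.4 to 9.2 are given for 7 of 11 libraries. The submitters' processing notes name the build mm10 and the tools Bowtie, edgeR 3.8.6 under R 3.1.2, bedtools 2.17.0, SAMtools 0.1.19, FastQC 0.11.3 and bcl2fastq 1.8.4. Their order, settings, annotation and strand setting are not given in the sources used here. The deposited values are a scaled signal, taken here as CPM multiplied by a factor per library, because columns sum to 605536 to 1504310. All values (100%) were whole multiples of 1 step per library (tolerance 1e-06). The design had assumed plain CPM, and the same test was used.

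Groups came from the titles. Judging by the name they were deposited under, the rows appear to be those that passed a CPM of 1 in 3 libraries. A gene that is low outside the mimic group may thus be listed only through that group. limma 3.58.1 (R 4.3.3) was run on log2(value + 1) in 1 fit of 3 group means over 11 libraries, moderated along a trend of variance with the mean, and adjusted by Benjamini and Hochberg over 13636 rows at 0.05, and was first tested on simulated data. A log2(value + 1) scale understates changes of low genes. Named beside the 10 genes were, per list, up to 6 called genes with the smallest p in mimic against scramble, and per gene the 3 most correlated rows, predicted genes left out; 1 gene that this rule names is not reported here. The genes and lists were chosen with earlier results of these data known, and the lists were written from memory. Alternatives covered the pseudocount (0.25), a minimum mean of 5, library totals, quantile and median-of-ratios scaling, the replicate number as a block, 2-group fits, array weights, and left-out libraries.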

Additional observations from a re-analysis of the deposited data

How the results depend on the processing

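Lcn2, Trf and Cp kept their direction and passed in both mimic comparisons under every alternative run, and Hamp, Fth1 and Hmox1 kept their direction in all of them. Fth1 was not called against scramble with quantile normalization (adjusted p = 0.139, limma) or in the fit of only the 2 groups (0.0717). All 10 genes passed against scramble, and 9 against PBS, when values were divided by library totals. That scaling moved the median of all rows to 0.50 and 0.51. Slc40a1 against PBS was then 0.53 (0.0042 with quantile normalization). Under library totals the following were above 0 against scramble: Il6st 0.14, Smad4 0.086, Slc39a8 0.16, Aco1 0.20, Ireb2 0.077, Pcbp2 0.22, Fech 0.082, Abcb6 0.27, Abcb10 0.014, Isca1 0.28, Nfs1 0.33, Sod1 0.22 and the hepatocyte marker Apoa2 0.025. Against PBS they were Il6st 0.29, Smad4 0.14, Slc39a8 0.18, Aco1 0.44, Ireb2 0.041, Pcbp2 0.24, Fech 0.15, Abcb6 0.26, Abcb10 0.11, Hspa9 0.019, Fdx1 0.39, Isca1 0.29, Nfs1 0.42, Sod1 0.34 and Apoa2 0.12. Of all rows, 2816 passed against scramble and 3273 against PBS among those with a mean of at least 5, where fewer rows were tested. With mimic 1 and 4 left out, 2548 and 2894 passed, and 3 of the 10 genes against scramble. Fits of only the groups compared called 5 rows in scramble against PBS. With single libraries left out, 2824 (without scramble 1) to 4904 (without PBS 2) rows passed against scramble, 3 (without scramble 2 or 3) to 6 of the 10 genes did, and 0 to 1 rows in scramble against PBS (1 without PBS 1). Small log2 changes crossed 0 there. Against scramble Tfrc ran from -0.0047 to 0.14. Against PBS, Slc40a1 ran from -0.17 to 0.0034 and Tfrc from -0.067 to 0.10 (-0.011 with array weights). In scramble against PBS, Tfrc ran from -0.13 to 0.041, Tfr2 from -0.032 to 0.043 (-0.0094 with array weights), Hmox1 from -0.098 to 0.15, Ftl1 from -0.075 to 0.019 and Trf from -0.0063 to 0.12. The cause of these shifts was not tested.

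Deviations of same-numbered libraries correlated between -0.28 and 0.26 over 10 pairs, with 3 pairs over 0.1, all of libraries numbered 3. The labels give the numbers no shared source, and they were not taken to pair the libraries. With the replicate number as a block, 3808, 4584 and 0 rows passed in the 3 comparisons and 5, 6 and 0 of the 10 genes, with Fth1 lost against scramble (adjusted p = 0.0701, limma) and Tfr2 at -0.024 in scramble against PBS. Count tests with edgeR and DESeq2 were not run, because the deposited values are scaled and not counts.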
